A study of Homo sapiens with 9 samples.

Results

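The urokinase system, its inhibitors and thrombospondin were followed over days 0, 2 and 14 of nutrient and oxygen deprivation in PANC-1 cells. The set had 6 genes of 27800 symbols in the table. They were the proteases PLAU (urokinase) and PLAT (tissue plasminogen activator), the urokinase receptor PLAUR, the inhibitors SERPINE2 and SERPINB2, and the matrix glycoprotein THBS1 (thrombospondin-1). All 6 were found, and the set was chosen on changes already known from these libraries. The levels and changes of the 6 genes are therefore given as a description, without p-values. Of the 6 genes, 4 reached 1 TPM in at least 3 of the 9 libraries and entered the fit, and PLAT and SERPINB2 did not.

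PANC-1 is an established line from a human pancreatic ductal tumour. It was profiled by RNA sequencing in 9 libraries, 3 each on day 0, day 2 and day 14, all labelled WT in the table's column names with no further genotype given, and the design put the question of what changes early and late under deprivation. Per the labels, the cells were kept in DMEM with lowered glucose, serum and amino acids, and under low oxygen. The growth protocol was worded identically for the 3 days, so how the day 0 cells were kept was not given. With no undeprived libraries of day 2 or day 14, deprivation, time in culture and a batch by day cannot be told apart. The labels did not say whether replicates came from separate cultures, so p-values measure only the spread between these libraries, which may be technical.

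Urokinase is secreted as an inactive precursor. Bound to its receptor, it cuts plasminogen into plasmin, which degrades fibrin and matrix and in turn activates more urokinase. Inhibitors of the serpin family trap the protease in a stable complex, which receptors of the LDL receptor family take into the cell. Thrombospondin-1 binds cell surface CD47, can release active TGF-beta from its latent complex and also binds plasminogen. In pancreatic tumours the system is studied for its part in matrix breakdown and invasion.

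The sequences before the transcription starts of PLAU, PLAUR and THBS1 are shown because PLAU and PLAUR were lower, and THBS1 higher, on both later days than on day 0. They are the 250 bases ahead of an annotated start in the RefSeq promoter table, build GRCh38.p14, which is not the build of the expression table (hg19). For PLAU the window is chr10:73910882-73911131 on the plus strand, ahead of the second of its 2 listed starts (73911132). For PLAUR it is chr19:43670170-43670419 on the minus strand, and for THBS1 chr15:39580829-39581078 on the plus strand. Each runs 5′ to 3′ toward the start, and capitals mark matches to the 5 motifs searched.
PLAU: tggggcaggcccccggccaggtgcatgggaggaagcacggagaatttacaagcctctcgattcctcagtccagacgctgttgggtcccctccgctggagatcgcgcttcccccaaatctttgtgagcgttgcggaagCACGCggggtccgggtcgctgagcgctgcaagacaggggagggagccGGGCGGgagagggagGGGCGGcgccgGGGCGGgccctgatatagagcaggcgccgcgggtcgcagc
PLAUR: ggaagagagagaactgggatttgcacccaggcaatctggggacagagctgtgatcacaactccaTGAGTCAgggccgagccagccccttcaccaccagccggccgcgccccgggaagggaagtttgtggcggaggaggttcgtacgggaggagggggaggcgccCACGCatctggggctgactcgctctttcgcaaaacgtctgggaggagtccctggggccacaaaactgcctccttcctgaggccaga
THBS1: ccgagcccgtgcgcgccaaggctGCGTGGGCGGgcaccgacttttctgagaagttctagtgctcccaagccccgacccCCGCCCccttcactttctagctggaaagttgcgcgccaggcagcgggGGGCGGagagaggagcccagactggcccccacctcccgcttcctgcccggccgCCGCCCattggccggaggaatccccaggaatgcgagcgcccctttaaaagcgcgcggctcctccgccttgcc
The motifs were searched on both strands: AP-1 (TGANTCA), the cyclic AMP element (TGACGTCA), the hypoxia element core (ACGTG or GCGTG), the SP1 GC box (GGGCGG) and the TATA box (TATAAA). The PLAU window held 3 GC boxes, first bases 66, 51 and 40 before the start, and 1 hypoxia core on the opposite strand 113 bases before it. The PLAUR window held 1 AP-1 match, TGAGTCA, 186 to 180 bases before the start, and 1 hypoxia core. The THBS1 window held 4 GC boxes and 1 hypoxia core that shares a base with 1 of them. Of 35116 windows in the RefSeq table, 6.57% held an AP-1 match, 1.65% the cyclic AMP element, 43.2% a hypoxia core, 42.6% a GC box and 10.7% a TATA box. GC content was 68.8% for PLAU, 63.2% for PLAUR and 69.6% for THBS1, against a median of 58.0% over all windows. The table had windows for 5 of the 6 genes, 7 in all. The first PLAU window held no match, and that of SERPINB2 an AP-1 match and a TATA box. The 2 SERPINE2 windows held hypoxia cores and GC boxes. Such matches describe the letters of the window only.

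Values are TPM, transcript abundance per length scaled so that each library sums to 1000000, which keeps no sequencing depth. The depth was therefore unknown, and no counting interval could be given. Day 0 replicate 2 stood apart from the other libraries. Only 11363 symbols reached 1 TPM in it, against 13016 to 13868 elsewhere, and ribosomal protein genes took 23.8% of its TPM, against 10.2% to 14.83% elsewhere. Its correlation with day 0 replicates 1 and 3 over tested genes was 0.870 and 0.875, whereas those correlated at 0.972 with each other. The changes of the members, the list counts and those of some single genes against day 0 are therefore also given without it. For the other single genes they are not, and some were smaller without it and some larger. On day 2 against day 0, JUN went from 2.78 to 2.21 and JUND from 2.00 to 2.17. The pancreatic carcinoma line markers KRT7, KRT8, KRT18, KRT19, EPCAM and VIM were all expressed, with sums of 5540 to 5940 TPM on day 0, 2660 to 2980 TPM on day 2 and 2060 to 2390 TPM on day 14. All 6 endothelial and all 6 blood cell markers were under 1 TPM in every library, as were 5 of 6 fibroblast markers, and DCN, HBB and CD3E were listed at 0 in all 9. Summed fibroblast markers, almost all COL1A1, spanned 10.1 to 61.1 TPM on day 0, 55.8 to 72.8 TPM on day 2 and 8.49 to 13 TPM on day 14. Their part in the results was not tested.

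Urokinase stood at a much lower level on both later days than on day 0. PLAU was at 545, 241 and 396 TPM on day 0, at 47.3, 34.1 and 42.8 TPM on day 2, and at 74.1, 56.3 and 38.4 TPM on day 14. The lowest day 0 library was above the highest of either later day, and days 2 and 14 overlapped. The mean was 394 ± 152 TPM on day 0, 41.4 ± 6.72 TPM on day 2 and 56.2 ± 17.9 TPM on day 14 (SD, n = 3 each). The log2 change of TPM + 1 was -3.16 ± 0.34 (SE) for day 2 against day 0 and -2.76 ± 0.34 for day 14 against day 0. These were -3.47 ± 0.28 and -3.07 ± 0.28 without day 0 replicate 2. Day 14 against day 2 gave 0.40 ± 0.34. By level, PLAU ranked 160th, 481st and 217th among the 27800 symbols in the day 0 libraries. It ranked between 1824th and 3273rd in the 6 later libraries.

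PLAU shares its locus with C10orf55, a gene on the opposite strand in the GENCODE annotation, and whether reads were assigned by strand is not given in the sources used here. C10orf55 was at 2.89, 0.381 and 2.71 TPM on day 0, at 0.878, 0.778 and 0.746 TPM on day 2 and at 0.580, 0.365 and 0.190 TPM on day 14. The level of PLAU was 43.8 to 633 times as high in the 9 libraries.

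The receptor PLAUR, a cell surface protein held by a lipid anchor, was lower on both later days than on day 0, by less than PLAU. PLAUR was at 19.5, 15.2 and 11.7 TPM on day 0, at 6.99, 6.55 and 7.47 TPM on day 2 and at 9.80, 11.3 and 8.51 TPM on day 14. The 3 days did not overlap, but the lowest day 0 library and the highest day 14 library lay close together. The means were 15.5 ± 3.91 TPM on day 0, 7.00 ± 0.463 TPM on day 2 and 9.86 ± 1.38 TPM on day 14 (SD, n = 3 each). The log2 change was -1.01 ± 0.22 for day 2 against day 0 and -0.58 ± 0.22 for day 14 against day 0, or -1.01 ± 0.21 and -0.58 ± 0.21 without day 0 replicate 2. Day 14 against day 2 gave 0.43 ± 0.22.

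The transcript of the other plasminogen activator was scarce throughout. PLAT, which works mainly on fibrin clots in blood vessels, was at 0.260, 0.0597 and 0.134 TPM on day 0, at 0.0459, 0.177 and 0.115 TPM on day 2 and at 0.305, 0.155 and 0.410 TPM on day 14. The days overlapped, and no fold change is given at this level.

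Of the inhibitors in the set, SERPINE2 was expressed and SERPINB2 was listed at 0 in nearly every library. SERPINE2 encodes protease nexin-1, which inhibits thrombin, urokinase and plasmin. Its level was 8.96, 6.15 and 4.93 TPM on day 0, 10.1, 11.4 and 7.88 TPM on day 2 and 14.3, 19.4 and 11.8 TPM on day 14. Day 2 overlapped day 0. All 3 day 14 libraries were above every earlier library, the nearest by a small margin. The means were 6.68 ± 2.07 TPM on day 0, 9.81 ± 1.80 TPM on day 2 and 15.2 ± 3.91 TPM on day 14 (SD, n = 3 each). The log2 change was 0.51 ± 0.27 for day 2 against day 0, 1.08 ± 0.27 for day 14 against day 0 and 0.57 ± 0.27 for day 14 against day 2. The changes against day 0 were 0.48 ± 0.28 and 1.05 ± 0.28 without day 0 replicate 2. SERPINB2, plasminogen activator inhibitor 2, was listed at 0 in 8 libraries and at 0.0839 TPM in day 14 replicate 1.

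Thrombospondin-1 was higher on both later days than on day 0. THBS1 was at 9.15, 1.55 and 7.35 TPM on day 0, at 21.0, 24.2 and 20.9 TPM on day 2 and at 22.2, 38.8 and 42.9 TPM on day 14. All 6 later libraries were above the highest day 0 library, and days 2 and 14 overlapped. The means were 6.02 ± 3.97 TPM on day 0, 22.0 ± 1.87 TPM on day 2 and 34.6 ± 11.0 TPM on day 14 (SD, n = 3 each). Day 0 replicate 2 had the lowest level of the 9 libraries. The log2 change was 1.94 ± 0.49 for day 2 against day 0 and 2.52 ± 0.49 for day 14 against day 0. Without that library they were 1.32 ± 0.26 and 1.90 ± 0.26, and day 14 against day 2 gave 0.58 ± 0.49. FSIP1, which overlaps THBS1 on the opposite strand, was at 0.506 to 1.58 TPM.

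**Figure D1:**
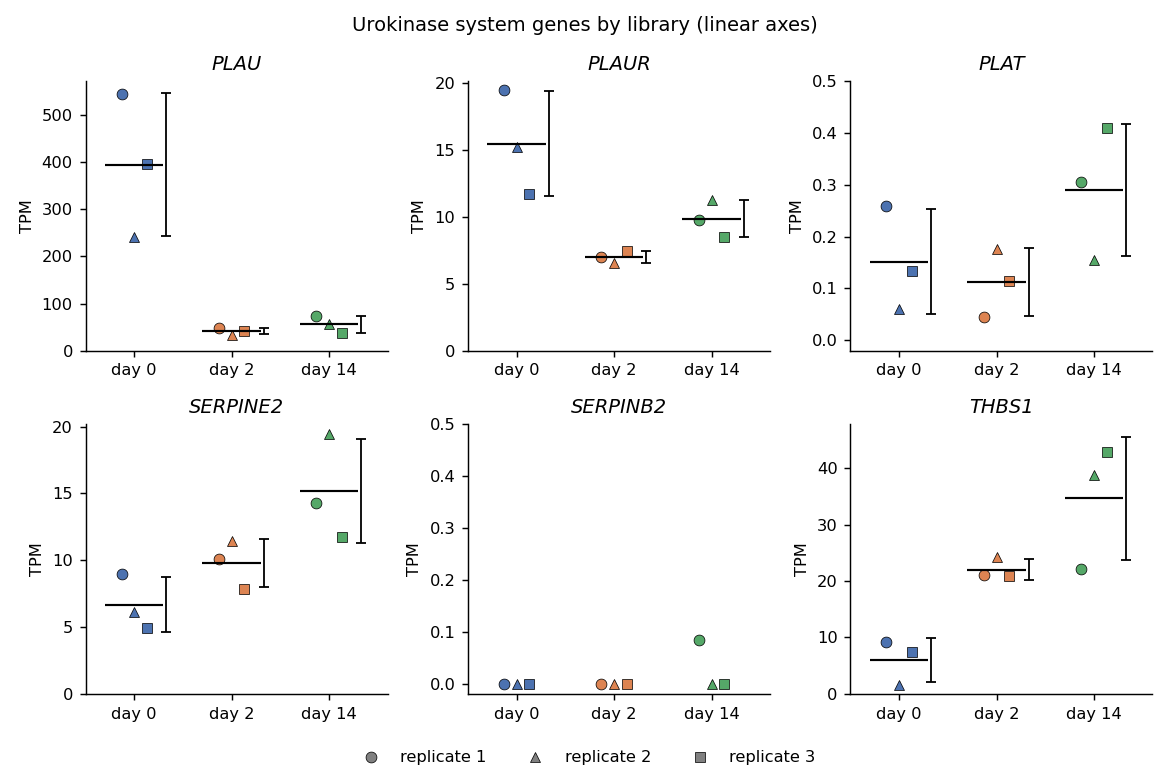
Levels in TPM (linear axes) of the 6 genes by day, 1 point per library with the marker giving the replicate number, a line for the mean of 3 libraries and a bar for ± SD; no mean is drawn for SERPINB2. PLAU and PLAUR are highest on day 0, THBS1 is highest on days 2 and 14, SERPINE2 is highest on day 14, and PLAT and SERPINB2 stay under 0.5 TPM.

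Over all 14144 tested genes, the median log2 change was not 0 but 0.23 for day 2 against day 0, 0.44 for day 14 against day 0 and 0.24 for day 14 against day 2. Relative to it, PLAU was at -3.39 and -3.20, PLAUR at -1.24 and -1.02, SERPINE2 at 0.28 and 0.64, and THBS1 at 1.71 and 2.08 on days 2 and 14 against day 0. With median-ratio scaling these all-gene medians came to -0.05, -0.04 and 0.02. Over all genes, 2715 were called higher and 1633 lower on day 2, and 3890 higher and 951 lower on day 14. With median-ratio scaling these were 2512 and 2818, and 2193 and 2533, so the balance of higher and lower calls rests on the scaling. The direction of change of the 4 genes against day 0 did not change under any scaling tried.

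In the fit of all genes (limma, Benjamini-Hochberg adjusted p under 0.05), 30.7% of tested genes were called for day 2 against day 0, 19.2% higher and 11.5% lower. The calls among the 4 tested members were THBS1 higher and PLAU and PLAUR lower. For day 14 against day 0, 34.2% of tested genes were called, 27.5% higher and 6.72% lower. There THBS1 and SERPINE2 were called higher and PLAU lower. For day 14 against day 2, 0.417% were called, 0.212% higher and 0.205% lower, with none of the 4 called and none at an unadjusted p under 0.05. Nothing is read from these counts, because the set was chosen on the same libraries. Leaving out day 0 replicate 2 gave the same counts among the 4 members, but over all genes 24.5% higher and 23.7% lower on day 2, 34.5% and 14.6% on day 14, and 23.4% and 3.82% for day 14 against day 2.

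Some of these calls depended on single libraries or on the scaling, and none of them is independent of how the set was chosen. That of THBS1 on day 2 was lost when day 2 replicate 1, 2 or 3 was left out. The call of SERPINE2 on day 14 was lost without day 14 replicate 2 (log2 change 0.90) and under both other scalings. PLAUR on day 14 was called under both other scalings and without day 0 replicate 3 (-0.75), and not otherwise.

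**Figure D2:**
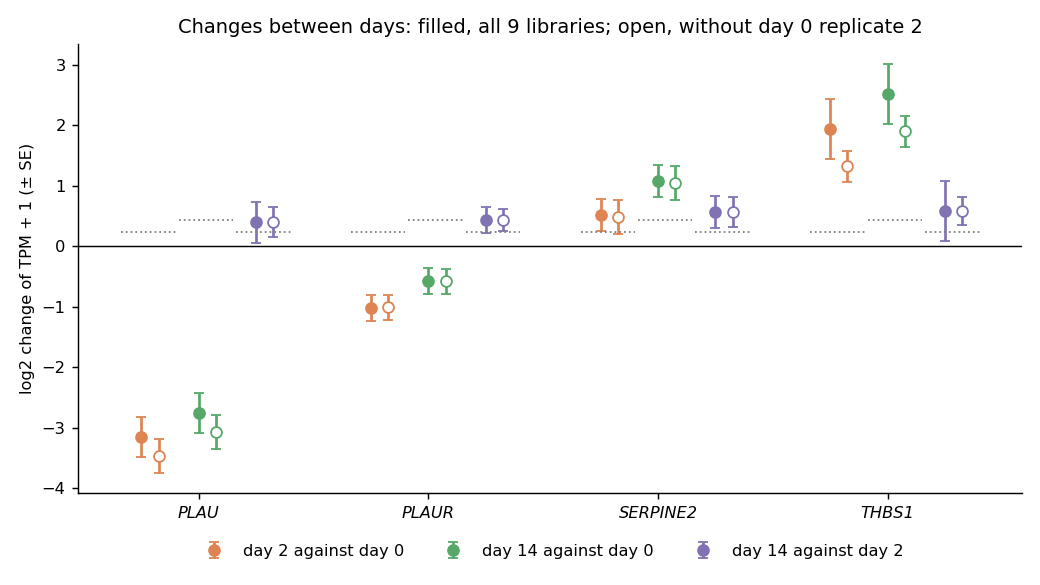
Log2 change of TPM + 1 (± SE, linear axis) of the 4 tested genes for the 3 comparisons of days, with filled points for all 9 libraries and open points without day 0 replicate 2; dotted lines give the median of all tested genes. PLAU lies near -3 against day 0 with and without that library, whereas THBS1 is at 1.94 on day 2 and 2.52 on day 14 with it, and at 1.32 and 1.90 without it.

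Ratios within a library do not depend on how the library was scaled, and they set the protease beside its receptor and an inhibitor. PLAU over SERPINE2 was 60.8, 39.2 and 80.3 on day 0, 4.69, 2.98 and 5.43 on day 2 and 5.17, 2.89 and 3.26 on day 14. The transcript of the protease was above that of the inhibitor in all 9 libraries, and days 2 and 14 overlapped under every day 0 library. PLAU over PLAUR was 27.9, 15.9 and 33.9 on day 0, 6.77, 5.20 and 5.72 on day 2 and 7.56, 4.99 and 4.51 on day 14, with days 2 and 14 overlapping. THBS1 over PLAU was 0.0168, 0.00642 and 0.0186 on day 0, 0.444, 0.710 and 0.489 on day 2 and 0.300, 0.690 and 1.12 on day 14. In day 14 replicate 3 alone, the level of THBS1 was above that of PLAU.

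**Figure D3:**
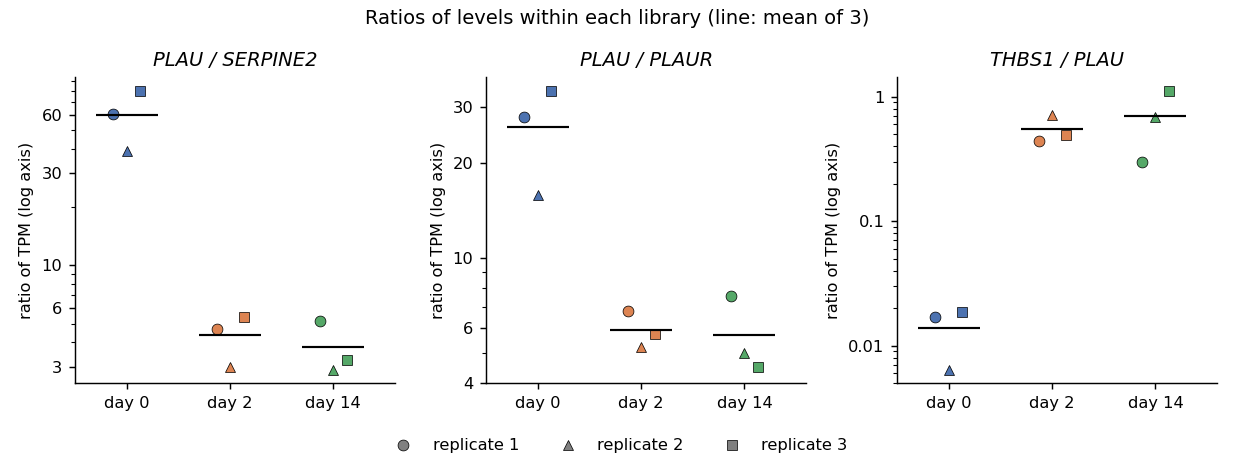
Ratios of TPM levels within each library by day (log axes), with a line for the mean of 3 libraries. PLAU over SERPINE2 lies between 39.2 and 80.3 on day 0 and between 2.89 and 5.43 on days 2 and 14, and THBS1 over PLAU is under 0.02 on day 0 and 0.300 or more on the later days.

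The plasminogen activation list held 28 other genes of the system, such as inhibitors, clearance receptors and plasminogen receptors, and 18 of them were tested. For day 2 against day 0, 4 rose and 2 fell, 22.2% and 11.1% of those tested, beside 19.2% and 11.5% of all genes. For day 14 against day 0, 4 rose and 3 fell, 22.2% and 16.7%, beside 27.5% and 6.72% of all genes. The median log2 changes were 0.06 and 0.16, beside 0.23 and 0.44 for all genes. Here and in the other lists, a share near that of all genes is no result about the list, and no list was tested against the other genes. Without day 0 replicate 2 the counts were 5 and 3 on day 2, and 5 and 4 on day 14, while over all genes 24.5% and 23.7%, and 34.5% and 14.6%, were then called. On day 14 the 4 rises became 2 when day 14 replicate 2 or 3 was left out. With median-ratio scaling 4 rose and 3 fell on day 2, and 2 rose and 5 fell on day 14. Over all 14144 tested genes that scaling gave 2512 higher and 2818 lower on day 2, and 2193 and 2533 on day 14. The counts of every list under that scaling stand beside these.

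Of 4 listed receptors of the LDL receptor family, which take up protease-inhibitor complexes, LRP1 and VLDLR rose, SORL1 was not called and LRP2, at most 0.0271 TPM, was not tested. LRP1 was at 3.71, 0.268 and 2.22 TPM on day 0, at 10.8, 13.1 and 8.53 TPM on day 2 and at 5.69, 11.9 and 10.4 TPM on day 14. Its log2 change was 2.12 ± 0.47 on day 2 (adjusted p = 0.0105) and 1.90 ± 0.47 on day 14 (adjusted p = 0.0155), or 1.58 and 1.36 without day 0 replicate 2, still called. The day 14 call was lost without day 14 replicate 2 (adjusted p = 0.0579) or 3 (0.0539). VLDLR was at 0.625, 0.375 and 0.727 TPM on day 0, at 3.98, 4.60 and 3.25 TPM on day 2 and at 2.56, 3.46 and 3.86 TPM on day 14. It rose by 1.65 ± 0.19 on day 2 (adjusted p = 0.000667) and by 1.44 ± 0.19 on day 14 (adjusted p = 0.00132), and was called in each alternative that tested it. VLDLR reached 1 TPM in no day 0 library and so entered the fit through the later days alone, which favoured a rise. No more is read from its p-values. SORL1, named after its values were seen, was at 11.7, 2.86 and 12.2 TPM on day 0, at 11.4 ± 0.536 TPM on day 2 and at 12.2 ± 0.930 TPM on day 14 (SD, n = 3 each). Its log2 change was 0.52 ± 0.43 on day 2 (adjusted p = 0.37) and 0.61 ± 0.43 on day 14 (adjusted p = 0.286), or -0.06 and 0.03 without day 0 replicate 2.

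Other genes of the list went different ways. F12, coagulation factor XII, which can also activate plasminogen, fell by 1.39 ± 0.23 on day 2 (adjusted p = 0.00329) and by 1.16 ± 0.23 on day 14 (adjusted p = 0.00678). SERPINI1, the tissue plasminogen activator inhibitor neuroserpin, rose by 1.41 ± 0.29 on day 14 (adjusted p = 0.0072), a call lost with median-ratio (0.0718) and quantile (0.155) scaling. On day 2 it was at 0.74 ± 0.29 (adjusted p = 0.0815), called only without day 2 replicate 2 (0.0473) and with array weights (0.00229). ENO1, a glycolytic enzyme that at the surface binds plasminogen, rose by 1.16 ± 0.24 on day 2 (adjusted p = 0.00805) and by 0.75 ± 0.24 on day 14 (adjusted p = 0.0412). The day 14 call was lost with median-ratio scaling (0.14, adjusted p = 0.654) and when day 14 replicate 1 (0.0635), 2 (0.125) or 3 (0.109) was left out. Dropping day 2 replicate 1 (0.0671), 2 (0.0568) or 3 (0.069) also ended it. The remaining calls, named after their values were seen, were a rise of SPINT1, an inhibitor of matriptase, on day 2, falls of the protease CTSL on both days and a fall of ST14 on day 14. ST14 encodes matriptase, an activator of urokinase precursor. It was at 0.456 ± 0.112 TPM on day 14 and 2.09 ± 0.478 TPM on day 0 (SD, n = 3 each). ST14 reached 1 TPM in no day 14 library and so entered the fit through day 0 and day 2 alone, which favoured a fall on day 14.

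The transcripts for the annexin A2 heterotetramer, a plasminogen receptor, were at a high level throughout. ANXA2 was at 1528 to 1702 TPM on day 0, 1554 to 1635 TPM on day 2 and 1366 to 1539 TPM on day 14, and was not called against day 0 (adjusted p = 0.998 and 0.574). Its partner S100A10 was at 524 to 904 TPM on day 0, 617 to 740 TPM on day 2 and 648 to 796 TPM on day 14 (adjusted p = 0.8 and 0.505), and without day 0 replicate 2 it was called higher on day 14 (0.46, adjusted p = 0.0218). MRC2, a collagen uptake receptor that associates with the urokinase receptor, was at 28.0, 7.08 and 31.3 TPM on day 0, at 48.6, 51.2 and 40.9 TPM on day 2 and at 20.6, 29.1 and 27.5 TPM on day 14. Its change on day 2 was 1.28 ± 0.47 (adjusted p = 0.071), and 0.64 (adjusted p = 0.0172) without day 0 replicate 2 or 1.64 (adjusted p = 0.0393) without day 0 replicate 3.

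Among 24 other serpins, 7 were tested. On day 2 against day 0, 2 rose and 0 fell, and on day 14 against day 0, 2 rose and 1 fell, also without day 0 replicate 2. These were 28.6% and 0% of the 7 on day 2, beside 19.2% and 11.5% of all genes, and 28.6% and 14.3% on day 14, beside 27.5% and 6.72%. The medians were 0.11 and -0.12, beside 0.23 and 0.44 for all genes. Without day 0 replicate 2, 24.5% and 23.7% of all genes were called higher and lower on day 2, and 34.5% and 14.6% on day 14. With median-ratio scaling 1 rose and 1 fell on day 2, and 1 rose and 2 fell on day 14. The rises were SERPINB1, an inhibitor of neutrophil proteases, at 1.04 ± 0.17 (adjusted p = 0.00314) and 1.18 ± 0.17 (adjusted p = 0.0019), and SERPINB8 at 0.87 ± 0.21 (adjusted p = 0.0154) and 1.55 ± 0.21 (adjusted p = 0.00143). The SERPINB1 calls were lost with median-ratio scaling (adjusted p = 0.0614 and 0.104), and that on day 14 also with quantile scaling (0.0623). The SERPINB8 call on day 2 was lost with quantile scaling (0.0787) and without day 2 replicate 1 (0.0655), each of which left 1 rise there. SERPINA3, alpha-1-antichymotrypsin, fell by 0.99 ± 0.16 on day 14 (adjusted p = 0.00313) and was low, at 0.129 ± 0.126 TPM on day 14 and 1.24 ± 0.216 TPM on day 0. It reached 1 TPM in the day 0 libraries only and so entered the fit through day 0 alone, which favoured a fall.

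The thrombospondin list held 18 genes, such as other thrombospondins, receptors and TGF-beta genes, and 14 were tested. Against day 0, 4 rose and 2 fell on day 2, and 3 rose and 0 fell on day 14, with medians of 0.17 and 0.10 beside 0.23 and 0.44 for all genes. The shares were 28.6% and 14.3% on day 2, beside 19.2% and 11.5% of all genes, and 21.4% and 0% on day 14, beside 27.5% and 6.72%. Without day 0 replicate 2 the counts were 4 and 7 on day 2 and 4 and 5 on day 14. Over all genes, 24.5% and 23.7% were then called on day 2, and 34.5% and 14.6% on day 14. The 4 rises on day 2 became 2 without day 2 replicate 1, 2 or 3, and the falls became 1 without day 2 replicate 3. With median-ratio scaling 3 rose and 5 fell on day 2, and 2 rose and 5 fell on day 14.

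TGFB2, a ligand held latent until it is activated, had the largest rise in the list on both days. It was at 8.52, 2.13 and 8.29 TPM on day 0, at 22.7, 23.5 and 26.6 TPM on day 2 and at 36.3, 44.5 and 22.6 TPM on day 14. The log2 change was 1.95 ± 0.43 on day 2 (adjusted p = 0.0108) and 2.39 ± 0.43 on day 14 (adjusted p = 0.00444), or 1.42 and 1.86 without day 0 replicate 2. THBS3, another thrombospondin, rose by 1.31 ± 0.31 on day 2 (adjusted p = 0.0131) and by 1.53 ± 0.31 on day 14 (adjusted p = 0.00651). LTBP4 and LTBP3 encode proteins that tether latent TGF-beta in the matrix. LTBP4 rose on day 2 (1.07, adjusted p = 0.0264) and LTBP3 on both days (0.64 and 0.62, adjusted p = 0.025 and 0.0265). These calls were not stable. LTBP4 was lost without day 2 replicate 1 (adjusted p = 0.0648), 2 (0.097) or 3 (0.0502), and LTBP3 with median-ratio scaling (0.402 and 0.943). LTBP3 was also lost on day 2 without day 0 replicate 1 (0.0722) or day 2 replicate 1 (0.0646), 2 (0.0943) or 3 (0.0565). On day 14 it was lost without day 0 replicate 1 (0.0723) or day 14 replicate 1 (0.0811), 2 (0.0609) or 3 (0.0612).

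CALR, the chaperone calreticulin, which at the surface takes part in thrombospondin-1 signalling, fell by 1.43 ± 0.25 on day 2 (adjusted p = 0.004). Its mean was 191 ± 14.9 TPM on day 2 and 537 ± 165 TPM on day 0 (SD, n = 3 each). On day 14 it was at -0.59 (adjusted p = 0.098), and at -0.88 (adjusted p = 0.00144) without day 0 replicate 2. The other fall on day 2, named after its value was seen, was B3GLCT, an enzyme that glycosylates thrombospondin repeats. CD47, the receptor of thrombospondin-1, was at 20.6, 36.1 and 18.1 TPM on day 0, at 14.0, 13.1 and 14.1 TPM on day 2 and at 18.3, 21.9 and 18.3 TPM on day 14. Its day 2 change was -0.75 ± 0.25 (adjusted p = 0.0521), and -0.46 (adjusted p = 0.015) without day 0 replicate 2 or -0.94 (adjusted p = 0.0324) without day 0 replicate 3.

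**Figure D4:**
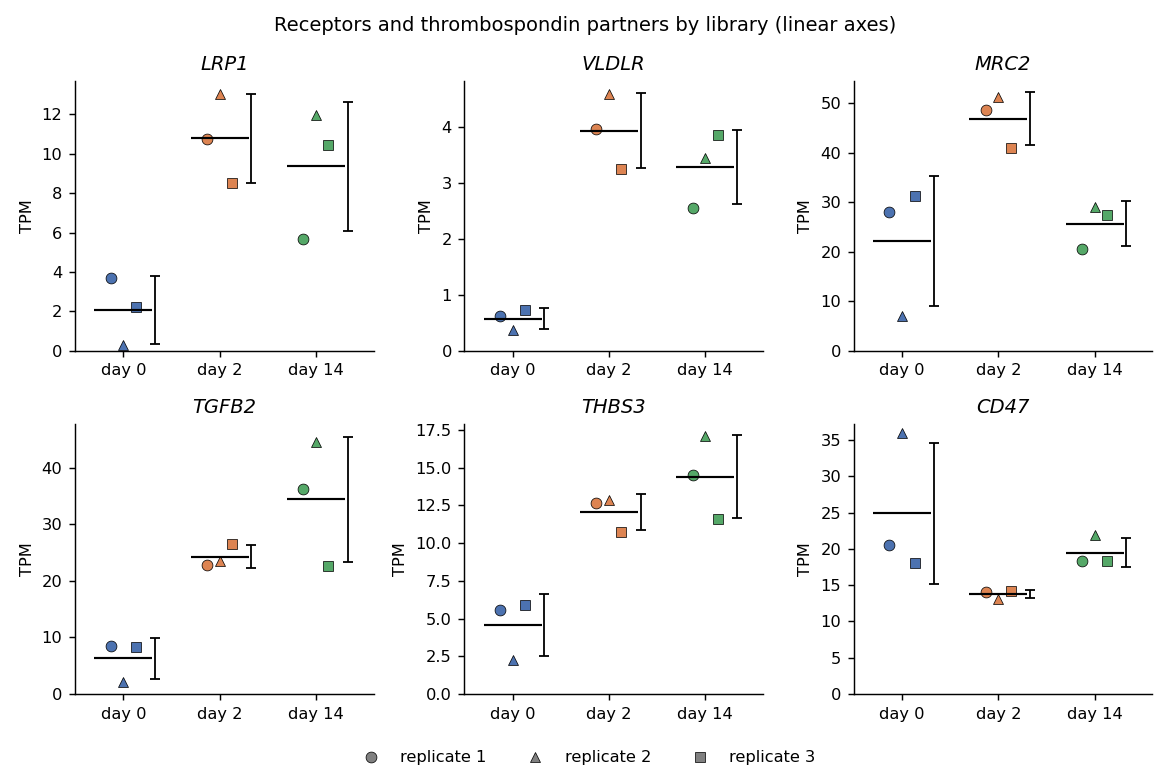
Levels in TPM (linear axes) by day of the receptors LRP1, VLDLR and MRC2, the ligand TGFB2, the thrombospondin THBS3 and the thrombospondin receptor CD47, 1 point per library, a line for the mean of 3 and a bar for ± SD. LRP1, VLDLR, TGFB2 and THBS3 are above every day 0 library on both later days, and day 0 replicate 2 (triangle) is the lowest day 0 library except for CD47, where it is the highest.

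Plasmin can activate matrix metalloproteinases, and 15 of 25 listed metalloproteinases and inhibitors were tested. Against day 0, 4 rose and 4 fell on day 2, and 3 rose and 2 fell on day 14, with medians of -0.08 and 0.41 beside 0.23 and 0.44 for all genes. As shares of the 15, these were 26.7% and 26.7% on day 2, beside 19.2% and 11.5% of all genes, and 20% and 13.3% on day 14, beside 27.5% and 6.72%. Without day 0 replicate 2 the counts were 3 and 5, and 3 and 3. Over all genes, 24.5% and 23.7% were then called on day 2, and 34.5% and 14.6% on day 14. Without day 2 replicate 1, 2 or 3 the list counts were 2 and 2 on day 2. With median-ratio scaling 4 rose and 5 fell on day 2, and 2 rose and 4 fell on day 14. The secreted matrix proteases MMP7 and MMP1 fell on both days, MMP7 by 1.28 ± 0.26 (adjusted p = 0.00754) and 1.36 ± 0.26 (adjusted p = 0.00565), and MMP1 by 1.28 ± 0.19 (adjusted p = 0.00208) and 1.03 ± 0.19 (adjusted p = 0.00515). Both were low, at 2.13 ± 1.19 and 2.21 ± 0.554 TPM on day 0. They reached 1 TPM in the day 0 libraries only and so entered the fit through day 0 alone, which favoured a fall. Their calls were kept with no filter on low values, but no more is read from these p-values. MMP25 and MMP28, named after their values were seen, were counted as rises on day 2. MMP25 reached 1 TPM on that day only, and MMP28 on that day and in day 14 replicate 2. Both so entered the fit through later days alone, which favoured a rise. The call of MMP28 (adjusted p = 0.0414) was lost without day 0 replicate 2 (0.072).

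The membrane-type protease MMP24 was at 12.9, 14.3 and 10.1 TPM on day 14 and at 2.15, 0.178 and 1.06 TPM on day 0, a rise of 2.76 ± 0.33 (adjusted p = 0.000896), or 2.39 without day 0 replicate 2. On day 2 it was at 1.15 ± 0.33 (adjusted p = 0.031), not called without day 2 replicate 1 (0.0766), 2 (0.0999) or 3 (0.0743) or day 0 replicate 3 (0.0586). Nor was it called on day 2 with no filter (0.0582), a pseudocount of 0.1 (0.0559), a mean of at least 5 TPM (0.0545) or a replicate block (0.0579). In all, 11 of 19 alternatives kept the day 2 call. MMP17, another membrane-type protease, rose by 1.13 ± 0.16 on day 2 (adjusted p = 0.00169). Its day 14 change of 0.61 (adjusted p = 0.0204) was not called with median-ratio scaling (0.928) or without day 14 replicate 1 (0.0608), 2 (0.052) or 3 (0.0618). TIMP3, a matrix-bound inhibitor, rose by 1.14 ± 0.17 on day 14 (adjusted p = 0.00183). It was low, at 1.53 ± 0.543 TPM on day 14 and 0.134 ± 0.0563 TPM on day 0. It reached 1 TPM in the day 14 libraries only and so entered the fit through day 14 alone, which favoured a rise. TIMP1, a secreted inhibitor, fell by 0.87 ± 0.25 on day 2 (adjusted p = 0.0296), a call lost without day 2 replicate 1 (0.0997), 2 (0.0511) or 3 (0.094). MMP14, which activates MMP2 at the cell surface, was at 12.2 ± 4.61 TPM on day 0, 10.8 ± 0.912 TPM on day 2 and 10.5 ± 1.51 TPM on day 14 (adjusted p = 0.816 and 0.731). It was called lower on day 14 without day 0 replicate 2 (-0.45, adjusted p = 0.0408) and with median-ratio (-0.68, 0.0119) and quantile (-0.63, 0.0113) scaling.

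The last list held 28 regulators known for acting on genes of the urokinase system or THBS1 or on messenger RNA decay, such as AP-1, ETS and EGR factors and RNA-binding proteins, and all 28 were tested. Against day 0, 10 rose and 2 fell on day 2, and 11 rose and 0 fell on day 14. That was 35.7% and 7.14% of the 28 on day 2, beside 19.2% and 11.5% of all genes, and 39.3% and 0% on day 14, beside 27.5% and 6.72%. The medians were 0.66 and 0.89, beside 0.23 and 0.44 for all genes. Without day 0 replicate 2 the counts were 11 and 6, and 13 and 4, and the medians 0.17 and 0.42 beside 0.02 and 0.24. Over all genes, 24.5% and 23.7% were then called on day 2, and 34.5% and 14.6% on day 14. On day 2 the rises became 5 without day 2 replicate 1 or 3 and 6 without replicate 2, and the falls 0 without replicate 1 and 1 without replicate 3. With median-ratio scaling 8 rose and 5 fell on day 2, and 8 rose and 4 fell on day 14. The counts of rises include FOSB on day 2 and FOS on day 14, both named after their values were seen. Both reached 1 TPM in no day 0 library and so entered the fit through the later days alone, which favoured a rise. The call of FOS (adjusted p = 0.0499) was lost without day 0 replicate 2 (0.0875).

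JUN and JUND, AP-1 subunits, rose on both days. JUND was at 54.0, 76.4 and 53.7 TPM on day 0, at 226, 261 and 252 TPM on day 2 and at 255, 308 and 339 TPM on day 14, with log2 changes of 2.00 ± 0.20 (adjusted p = 0.000344) and 2.28 ± 0.20 (adjusted p = 0.000249). JUN rose by 2.78 ± 0.54 (adjusted p = 0.00599) and 2.43 ± 0.54 (adjusted p = 0.0101). EGR1, an immediate early factor, rose by 2.13 ± 0.39 (adjusted p = 0.00444) and 3.04 ± 0.39 (adjusted p = 0.00111), and ZFP36L1, which promotes decay of AU-rich messenger RNAs, by 2.25 ± 0.32 (adjusted p = 0.00153) and 2.26 ± 0.32 (adjusted p = 0.00163). The AP-1 subunit FOSL2 was at 24.7, 1.48 and 22.7 TPM on day 0, at 90.7, 106 and 97.1 TPM on day 2 and at 56.8, 105 and 95.0 TPM on day 14. It rose by 3.11 ± 0.79 (adjusted p = 0.0183) and 2.87 ± 0.79 (adjusted p = 0.0232), or 2.00 and 1.77 without day 0 replicate 2. Its calls were lost without day 2 replicate 1 (adjusted p = 0.0519), 2 (0.0581) or 3 (0.0552) on day 2, and without day 14 replicate 2 (0.0736) or 3 (0.0691) on day 14.

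FOSL1, the FOS-related AP-1 subunit most abundant in these cells on day 0, was at 357, 128 and 329 TPM on day 0, at 173, 190 and 175 TPM on day 2 and at 204, 341 and 263 TPM on day 14. Against day 0 it was at -0.46 ± 0.38 on day 2 (adjusted p = 0.374) and 0.09 ± 0.38 on day 14 (adjusted p = 0.866). It was called lower on day 2 without day 0 replicate 2 (-0.93, adjusted p = 0.00647), as with median-ratio scaling (-0.81, adjusted p = 0.0394).

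Between day 14 and day 2, none of the 5 lists had a call among its tested genes. At an unadjusted p under 0.05, 3 genes of the plasminogen list, 3 other serpins, 3 thrombospondin partners, 6 metalloproteinases and inhibitors and 6 regulators were counted, beside 18.1% (2558) of all 14144 tested genes. The lowest adjusted p-values were 0.0656 for RECK, 0.0923 for ETS1 and 0.0972 for ST14, named after their values were seen. As given above, ST14 entered the fit through day 0 and day 2 alone. Without day 0 replicate 2, which enters this comparison only through the shared estimate of the spread, MRC2 was called lower on day 14 than on day 2 (-0.85, adjusted p = 0.0119), and CD47 (0.47, adjusted p = 0.0204) and CALR (0.84, adjusted p = 0.0075) higher. In that fit 3307 genes, 23.4% of all tested, were called higher and 541, 3.82%, lower, so such calls were common there. The counts of rises and falls over the lists in that fit were 0 and 4 for plasminogen activation, 2 and 2 for other serpins, 4 and 1 for thrombospondin partners, 5 and 1 for metalloproteinases and inhibitors and 6 and 0 for regulators.

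**Figure D5:**
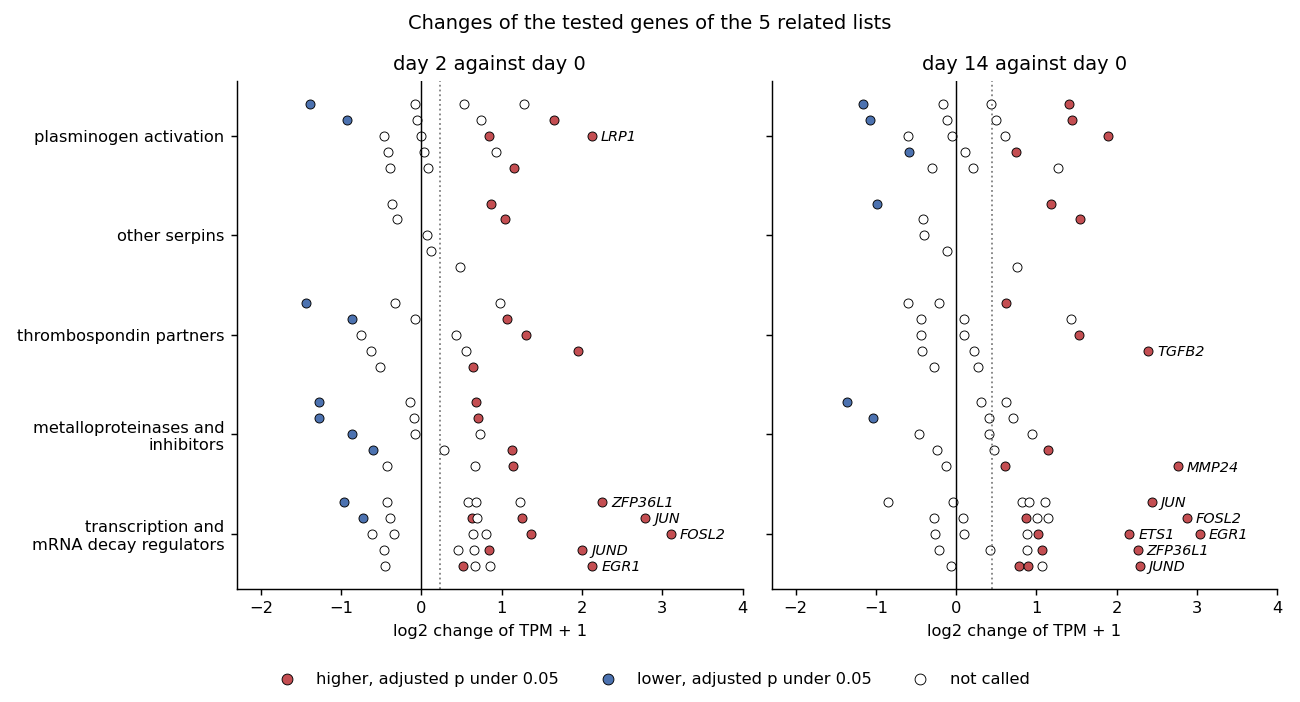
Log2 change of TPM + 1 (linear axis) of each tested gene in the 5 lists for day 2 and day 14 against day 0, filled where the adjusted p was under 0.05; vertical spread within a list only separates the points, and the dotted line is the median of all 14144 tested genes. Called genes that changed by 2 or more are named. Called points are 6 of 18, 2 of 7, 6 of 14, 8 of 15 and 12 of 28 on day 2 for the plasminogen, serpin, thrombospondin, metalloproteinase and regulator lists.

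The 4 listed hypoxia markers gave a check of the labels, and 3 of them were called higher on both later days. VEGFA was at 8.15, 4.14 and 10.5 TPM on day 0, at 175, 197 and 169 TPM on day 2 and at 105, 144 and 137 TPM on day 14. ADM was at 134 ± 9.31 TPM on day 0, 1185 ± 155 TPM on day 2 and 1200 ± 42.9 TPM on day 14 (SD, n = 3 each). NDRG1, a stress response gene, was at 4.85, 2.32 and 4.58 TPM on day 0, at 256, 343 and 242 TPM on day 2 and at 46.9, 243 and 109 TPM on day 14. CA9, a surface carbonic anhydrase, was at 0.0598, 0.0619 and 0 TPM on day 0, at 2.66, 3.24 and 3.14 TPM on day 2 and at 0.107, 1.47 and 2.39 TPM on day 14. It was called higher on day 2 (adjusted p = 0.00441) and not on day 14 (adjusted p = 0.0536). CA9 reached 1 TPM in no day 0 library and so entered the fit through the later days alone, which favoured a rise.

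Day 14 replicate 1 thus had the lowest VEGFA, NDRG1 and CA9 of its day. It had the highest ADM, at 1230 TPM beside 1218 and 1151 TPM in replicates 2 and 3. Its CA9 of 0.107 TPM stood beside at most 0.0619 TPM on day 0. In the same library PLAU was the highest of day 14, at 74.1 TPM, and THBS1 the lowest, at 22.2 TPM. With that library left out, the log2 changes on day 14 against day 0 were -2.98 for PLAU, -0.58 for PLAUR, 1.11 for SERPINE2 and 2.80 for THBS1, and against day 2 they were 0.18, 0.44, 0.59 and 0.86. The part of this difference between libraries in the members' values was not tested.

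The genes most like each member across the 9 libraries were found among 9157 genes with a mean of at least 5 TPM, by Pearson correlation of log2(TPM + 1). The libraries share days and the change between day 0 and the later days, so high values were common, and r is a description only. PLAU was most like UXS1 (r = 0.991, and 0.993 over the 8 libraries without day 0 replicate 2), CCT2 (0.988 and 0.991) and EIF3C (0.986 and 0.991). CCT2, a chaperonin subunit, was at 257 to 297 TPM on day 0, 99.8 to 105 TPM on day 2 and 113 to 133 TPM on day 14. PLAUR was most like SOD2 (0.953 and 0.950) and RINT1 (0.951 and 0.962). SOD2, the mitochondrial superoxide dismutase, was at 60.1 to 71.1 TPM on day 0, 37.4 to 41.2 TPM on day 2 and 43.9 to 50.0 TPM on day 14.

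SERPINE2 had lower values, led by IDUA (0.934 and 0.920), ENTPD6 (0.909 and 0.893) and MMP24 (0.907 and 0.908). IDUA, a lysosomal enzyme, was at 5.25 to 9.58 TPM on day 0, 10.4 to 11.9 TPM on day 2 and 13.7 to 17.3 TPM on day 14. THBS1 was most like ZNF780A (0.994 and 0.991), TRPC1 (0.993 and 0.983) and ZNF844 (0.990 and 0.979). TRPC1, a cation channel, was at 2.47 to 5.65 TPM on day 0, 9.61 to 10.6 TPM on day 2 and 10.6 to 14.6 TPM on day 14, with day 0 replicate 2 the lowest, as for THBS1.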

How the data were processed

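RNA sequencing of 9 PANC-1 samples was used, 3 each of day 0, 2 and 14, grouped by their titles. Each sample has TPM per gene symbol, as the authors deposited them. The submitters' processing notes name Salmon, a transcript quantifier, and hg19. Which version, annotation and strand setting were used is not given in the sources used here. Such values are relative within a library, so abundant entries lower all others; MIR6723 and MIR4461 held 22.43% to 40.27% of each library.

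Genes at 1 TPM or more in at least 3 of 9 libraries (14144) were tested on log2(TPM + 1), which understates changes of low genes, with limma 3.58.1 in R 4.3.3: 1 fit of all 9 libraries, intensity trend, two-sided, Benjamini-Hochberg adjustment within each comparison at 0.05. The code was checked on simulated data. No nonzero value was shared between libraries.

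The members and lists were chosen with earlier results of these data known. Named genes were the members, up to 4 called, non-overlapping genes per list and comparison with the largest change, 9 genes fixed by name (S100A10, ANXA2, LRP1, VLDLR, MRC2, CD47, MMP14, TIMP1 and FOSL1) and up to 3 genes most like each tested member. Of the genes this rule covers, 2 are not reported here, and 1 of them was left out of its list. Alternatives were other pseudocounts (0.1 and 5), filters, scalings, no trend, array weights, a replicate block, and leaving out each library. Removing both short RNAs was added after the data were seen.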

Additional observations from a re-analysis of the deposited data

How the results depend on the processing

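The 6 members are few, 3 libraries a day limit the precision, and depth could not be read from TPM. Directions of the 4 tested members were kept in every alternative, and 7 of 228 member values moved by more than the spread between replicates. With median-ratio scaling, PLAUR moved to -1.34 on day 2, and on day 14 PLAU moved to -3.36, PLAUR to -1.14 and SERPINE2 to 0.53. Quantile normalization put PLAUR on day 14 at -1.02 and SERPINE2 at 0.54, and a pseudocount of 5 put PLAUR on day 2 at -0.75. The cause was not tested. Of 570 values for list counts 88 moved, and of 114 for counts over all genes 54 did. For counts, moved means by more than 1.5 times, or any change to or from 0. No single fold change that was called changed sign. The balance of higher and lower calls over all genes turned towards lower ones under median-ratio and quantile scaling on both days against day 0, and with array weights on day 2. Limma without an intensity trend and no filter on low values moved none of these counts or member values. For single genes named from the lists, 60 of 1689 values lost a call, 54 gained one and 47 changed in size or sign where nothing was called.

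Counts are given as higher and lower against day 0 for day 2, then day 14, then for day 14 against day 2. With a mean of at least 5 TPM, which tests fewer genes, calls over all genes were 1697 higher on day 2, 2451 higher on day 14, and 11 higher and 13 lower between the later days. Other serpins then had 1 higher on day 2, and 1 higher and 0 lower on day 14. Metalloproteinases had 1 higher and 2 lower on day 2 and 0 lower on day 14, and plasminogen genes 2 higher on day 14.

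With array weights, calls over all genes were 4313 and 4662 on day 2, 2785 lower on day 14, and 4407 and 645 between the later days. On day 2, plasminogen genes then had 7 higher and 6 lower, and serpins 2, thrombospondin partners 7, metalloproteinases 7 and regulators 8 lower. On day 14, plasminogen genes had 5, serpins 2, thrombospondin partners 7 and regulators 5 lower. Between the later days they had 1 and 3 for plasminogen genes, 2 and 2 for serpins, 4 and 1 for thrombospondin partners, 6 and 1 for metalloproteinases and 12 and 1 for regulators.

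With median-ratio scaling, calls over all genes were 2818 lower on day 2, 2193 and 2533 on day 14, and 94 lower between the later days, where regulators had 1 higher. Serpins had 1 and 1 on day 2 and 1 and 2 on day 14, plasminogen genes 2 and 5 on day 14, thrombospondin partners 5 lower on each day, regulators 5 lower on day 2 and 4 on day 14, and metalloproteinases 4 lower on day 14. With quantile normalization, calls over all genes were 2815 lower on day 2, 2416 and 2454 on day 14, and 120 and 221 between the later days. Serpins had 1 and 1 on day 2 and 1 and 3 on day 14, thrombospondin partners 4 lower on day 2 and 3 on day 14, metalloproteinases 2 higher on day 2 and 4 lower on day 14, plasminogen genes 2 higher and regulators 3 lower on day 14. Between the later days, plasminogen, serpin and thrombospondin lists had 1 lower each, and metalloproteinases and regulators 1 higher each.

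Pseudocounts moved the calls over all genes between the later days, to 3 and 3 at 0.1 and to 71 and 56 at 5, where metalloproteinases had 1 higher. Without MIR6723 and MIR4461, an alternative chosen after seeing the data, they were 5 and 11. The 9 correlations between same-numbered libraries, of deviations from the day means, ran from -0.079 to 0.015. They showed no shared deviation by replicate number, but cannot tell whether same-numbered samples came from 1 culture. With a replicate block, thrombospondin partners had 2 higher on day 2, metalloproteinases 2 higher and 2 lower, and calls over all genes between the later days were 1 and 1.

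Leaving out each library in turn gave 1671 to 3471 higher and 945 to 3351 lower calls over all genes on day 2, 2572 to 4873 and 628 to 2063 on day 14, and 0 to 3307 and 1 to 541 between the later days, the highest each time without day 0 replicate 2. Higher and lower list counts on day 2 ran from 3 to 5 and 2 to 3 for plasminogen genes, 1 to 2 and 0 for serpins, 2 to 4 and 1 to 7 for thrombospondin partners, 2 to 4 and 2 to 5 for metalloproteinases and 5 to 11 and 0 to 6 for regulators. On day 14 they ran from 2 to 5 and 2 to 4, 2 and 1, 2 to 4 and 0 to 5, 2 to 4 and 2 to 3, and 8 to 13 and 0 to 4. Between the later days they ran from 0 up to 0 and 4, 2 and 2, 4 and 1, 5 and 1, and 6 and 0. Member changes ran from -3.47 to -2.88 for PLAU, -1.19 to -0.84 for PLAUR, 0.34 to 0.72 for SERPINE2 and 1.32 to 2.32 for THBS1 on day 2, and from -3.07 to -2.49, -0.75 to -0.41, 0.90 to 1.29 and 1.90 to 2.90 on day 14. Between the later days they ran from 0.18 to 0.64, 0.34 to 0.53, 0.39 to 0.73 and 0.40 to 0.86.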
